A study of Mus musculus with 4 samples.

Results

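Across CD45+ cells of the mouse mammary gland, 7 genes for C-type lectin-like receptors of natural killer (NK) cells were followed: Klrd1 (CD94), Klrc1 (NKG2A), Klrc2 (NKG2C), Klrk1 (NKG2D), Klre1, Klri2 and Klrb1c (NK1.1). They were taken by name from 55253 genes that both gene matrices hold, by a rule that uses no measured value. All 7 were detected. Cells came from 2 droplet libraries named for successive years, called earlier and later here, in which antibodies with DNA barcodes (hash tags) marked the samples that were pooled. The earlier library held samples named Nulliparous (never pregnant), Gestation and Lactation, and the later library held Gestation, Lactation, Involution, Regression, GF and Balb/c. Both also held a sample on tag HT2. The deposited sheets name it Germ-free, but the title of the earlier library lists no germ-free sample, so it is called HT2 here. Balb/c, named for an inbred strain, is shown apart except where its inclusion is stated. The sources used here do not state the strain of the other samples, any age, how many mice carried each tag or the stage of the GF and Balb/c mice. The p-values therefore measure the spread between hash samples, which may be technical.

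NK cells and some T cells use these receptors to tell healthy from stressed neighbours. CD94 reaches the surface as a partner of NKG2A, which inhibits, or of NKG2C, which activates, and both pairs bind Qa-1, the product of H2-T23. NKG2D binds stress-induced ligands of the Rae1, H60 and Ulbp1 families and signals through the adaptor DAP10 (Hcst). KLRE1 pairs with KLRI proteins, and NK1.1 is an activating receptor whose antibody has long been used to define NK cells in some mouse strains and leaves those of others, BALB/c among them, unstained.

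All 7 genes lie on chromosome 6 (build mm10, GRCm38.p6) in the NK gene complex. Klre1 (129559365 to 129585828), Klrd1 (129588092 to 129598775), Klrk1 (129610323 to 129623903), Klrc2 (129649602 to 129660737), Klrc1 (129666015 to 129682852) and Klri2 (129729041 to 129740484) fall within 181 kb. Klrb1c (128778485 to 128788641) lies 771 kb from the nearest of them. RefSeq promoter windows were found for 5 of the 7. Their 250 bases upstream of a start site listed by RefSeq are shown because the 5 genes fell together from NK cells to CD8 T cells. They run 5′ to 3′ on the gene's strand, with capitals for the letters TGTGGT or ACCACA, the core bound by RUNX factors on either strand, and for GTGTGA or TCACAC, a T-box core.
Klrb1c, chr6:128788642-128788891, minus strand: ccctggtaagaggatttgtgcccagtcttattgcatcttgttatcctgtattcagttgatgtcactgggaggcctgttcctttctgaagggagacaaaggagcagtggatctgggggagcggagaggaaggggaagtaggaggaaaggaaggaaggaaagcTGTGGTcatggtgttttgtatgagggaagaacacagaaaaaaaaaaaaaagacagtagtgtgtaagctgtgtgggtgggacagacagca
Klre1, chr6:129577963-129578212, plus strand: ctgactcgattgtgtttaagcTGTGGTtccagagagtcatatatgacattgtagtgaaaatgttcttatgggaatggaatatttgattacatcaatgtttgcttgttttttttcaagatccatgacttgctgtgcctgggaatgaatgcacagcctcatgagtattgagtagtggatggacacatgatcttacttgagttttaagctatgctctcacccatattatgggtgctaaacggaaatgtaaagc
Klrk1, chr6:129623865-129624114, minus strand: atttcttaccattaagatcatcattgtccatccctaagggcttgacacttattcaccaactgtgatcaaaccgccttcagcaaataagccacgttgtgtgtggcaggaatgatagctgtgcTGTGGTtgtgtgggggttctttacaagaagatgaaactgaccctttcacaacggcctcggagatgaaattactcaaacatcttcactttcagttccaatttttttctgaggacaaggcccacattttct
Klrc2, chr6:129660597-129660846, minus strand: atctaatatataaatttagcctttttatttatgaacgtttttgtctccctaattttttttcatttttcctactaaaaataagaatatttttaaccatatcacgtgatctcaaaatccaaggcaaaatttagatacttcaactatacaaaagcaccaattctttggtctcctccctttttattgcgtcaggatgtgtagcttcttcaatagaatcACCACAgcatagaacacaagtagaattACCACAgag
Klrc1, chr6:129678974-129679223, minus strand: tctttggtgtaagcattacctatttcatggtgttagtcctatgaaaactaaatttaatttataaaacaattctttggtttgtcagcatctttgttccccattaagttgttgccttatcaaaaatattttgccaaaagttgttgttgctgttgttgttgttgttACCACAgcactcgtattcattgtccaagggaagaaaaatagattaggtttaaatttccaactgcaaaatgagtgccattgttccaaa
Each of the 5 windows shown held the RUNX letters, Klrc2 at 2 places and the other 4 at 1 place each. Of 32851 mouse windows of the same length, 14.0% held them. The T-box letters were in none of the 5, and in 12.3% of all windows. The ETS letters AGGAAG (or CTTCCT) were found 3 times upstream of Klrb1c and not in the other 4 windows, against 29.5% of all windows, and the AP-1 letters TGANTCA were in none of the 5, against 6.75% of all windows. The windows shown for Klre1 and Klrc1 lie inside the gene spans given above. They are upstream of internal start sites, not of the outer 5′ ends of these genes. The windows of Klrc2 and Klrk1 begin inside the gene spans and run past their ends, so these start sites are internal too. Only the window of Klrb1c begins next to the outer 5′ end of its gene. RefSeq lists a second start site for Klre1 and Klrc2, and the first listed is shown. The window of the second Klre1 start (129578036 to 129578285) held no RUNX letters and 1 match each to the T-box and ETS letters, so the counts for Klre1 depend on the start site. That of Klrc2 (129660557 to 129660806) held the RUNX letters at 2 places. It overlaps the Klrc2 window shown, and these are the same places. A match describes the letters only.

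Lymphocytes were sorted in the counts by genes outside the group. The NK gate holds cells with Ncr1 (NKp46) and without Cd3e, Trdc or Cd8b1. The CD8ab gate holds cells with Cd3e and Cd8b1, the CD8a-only gate cells with Cd3e and Cd8a but no Cd8b1, and the gamma-delta gate cells with Cd3e and Trdc, all without Ncr1. Cells with both Cd3e and Ncr1 form the double gate, and the remaining Cd3e cells are called other T. Presence means at least 1 UMI (unique molecular identifier, 1 captured transcript) and absence 0. The 10 samples other than Balb/c gave 2368 cells in the NK gate, 532 double, 1860 CD8ab, 802 CD8a-only, 533 gamma-delta and 3721 other T. A level below is the number of UMIs of a gene per 10000 UMIs summed over all cells of a gate in 1 sample. Levels of different genes were not compared, since they depend on transcript sequence and length.

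Depth and cell identity set the frame. The earlier library had a median of 1599 UMIs per cell in 21604 cells and the later library 3049 UMIs in 21177 cells. After tag and doublet calls 15287 and 14612 cells were analysed, and 139 cell barcodes occurred in both libraries. All 7 NK markers (Gzma, Il2rb, Nkg7, Prf1, Txk, Tbx21 and Eomes) were present in every NK gate sample, with a summed level of 64.2 to 228 (median 101). T cell markers summed to 3.11 to 6.21 there against 26.3 to 33.8 in the CD8ab gate, and B markers to 0.308 to 3.41 against 38.6 to 49.97 in B cells. The gamma-delta gate carried the same NK markers at a median of 109 (16.6 to 252), the CD8a-only gate at 62.3 (10.9 to 267) and the CD8ab gate at 22.8 (13.7 to 53.6). Free RNA was read from cells that should lack the receptors. In B cells (Cd79a and Ms4a1) the median levels of the 7 genes were 0 to 0.119 and in myeloid cells (Csf1r and Lyz2) 0.0172 to 0.307, against 1.66 to 5.93 in the NK gate. Barcodes under 100 UMIs in the earlier library held them at 0.144 (Klri2) to 0.760 (Klrd1) per 10000 of their own UMIs. That gives the makeup of free RNA, not its amount within cells. The later matrix held only barcodes with at least 500 UMIs.

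The NK gate held the highest median level of every member, and the CD8ab gate the lowest of the 6 lymphocyte gates. Klrd1, the shared CD94 subunit, had a median of 5.39 in the NK gate (4.29 to 7.69 over 10 samples), 5.35 in the double gate, 3.55 in the gamma-delta gate, 3.29 in the CD8a-only gate, 1.65 in other T cells and 1.51 in the CD8ab gate. Its first 4 gates overlapped widely. Klrc1, the inhibitory partner, went from 1.99 in the NK gate through 1.39, 1.095, 0.578 and 0.314 in the double, gamma-delta, CD8a-only and other T gates to 0.196 in the CD8ab gate. Klrc2, the activating partner, had medians of 2.96, 1.93, 1.18, 0.864, 0.532 and 0.263 in the same order. The ranges of neighbouring gates overlapped at every step for Klrc1 and Klrc2.

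Klrk1 (NKG2D) had a median of 5.41 in the NK gate, 2.98 in the double, 1.95 in the gamma-delta, 1.65 in the CD8a-only, 1.24 in the other T and 0.600 in the CD8ab gate. Klrb1c (NK1.1) followed the same order with 5.93, 4.53, 2.57, 1.78, 0.803 and 0.173. Klre1 had 5.84 in the NK gate and 4.38 in the double gate, then 2.67 in the CD8a-only, 2.54 in the gamma-delta, 0.983 in the other T and 0.312 in the CD8ab gate. Klri2 had a median of 1.66 in the NK gate (0.869 to 2.15), 0.441 in the double gate and at most 0.0941 in the other 4. Its highest sample outside the NK and double gates reached 0.289, in the gamma-delta gate of the earlier Nulliparous sample, still below its lowest NK gate sample.

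**Figure D1:**
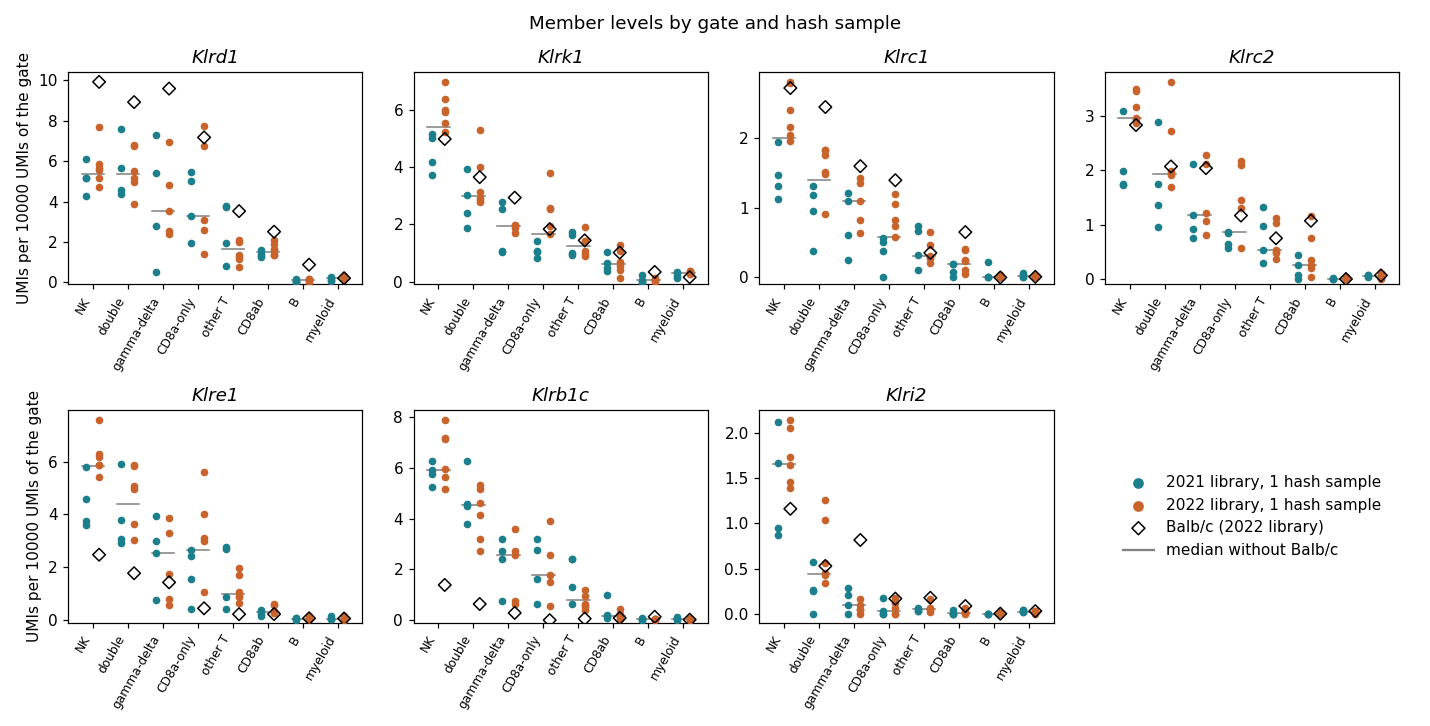
Level of each member (UMIs per 10000 UMIs of the gate, linear axis from near 0) in 6 lymphocyte gates and in B and myeloid cells. Each dot is 1 hash sample with at least 20 cells, the open diamond is Balb/c and the grey line is the median without it. Klri2 is high in the NK gate, while Klrd1 lies between 1.27 and 2.10 in the CD8ab samples other than Balb/c.

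Shares of cells gave another view. Each cell was thinned to 1000 UMIs, shallower cells were left out and the gates were drawn again on the thinned counts, where Ncr1 and the T cell genes are also found less often. The NK gate then held 859 cells of the earlier library (1457 unthinned) and 557 of the later (911 unthinned), not all of them cells of the unthinned gate. A median of 51.1% of these cells over 10 samples had a Klrb1c UMI, 46.7% Klrk1, 44.5% Klre1, 43.7% Klrd1, 25.4% Klrc2, 18.3% Klrc1 and 14.1% Klri2. Unthinned, these shares were 71.7%, 72.2%, 65.9%, 64.6%, 53.9%, 36.4% and 28.5%. In thinned B cells (8 samples with at least 20 cells) each member had a median of 1.43% or less, and in thinned CD8ab cells (9 samples) Klrd1 was at 15.4% and the other 6 at 5.71% or less. Klrc1 UMIs made up 41.0% of the joint Klrc1 and Klrc2 count in the NK gate of the earlier library (exact 95% interval 38.0 to 44.1%, counting error only) and 41.9% in the later library (39.6 to 44.2%). In the CD8ab gate the share was 40.0% (26.4 to 54.8%) and 39.7% (33.7 to 46.0%), so the intervals of the NK and CD8ab gates overlapped although the levels were far apart. Klrc1, Klrc2 and Klrc3, like Klri1 and Klri2, are close relatives, and how reads that fit more than 1 of them were counted is not given, so the split between them is uncertain.

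Within the NK gate, cells with and without one NKG2 gene were compared for its partners. In thinned cells of the later library, Klrc2 was detected in 28.5% and Klrc1 in 20.1%. Klrc1 was detected in 19.5% of cells with Klrc2 and in 20.4% of those without. In the earlier library the 2 shares were 18.2% and 14.6%. Klrd1 was detected in 44.6% of the later library's cells with Klrc1 and in 45.4% without, and in 47.7% and 42.6% in the earlier library. These are shares at a shallow fixed depth, pooled over samples, with no test.

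Against CD8ab T cells, each receptor was higher in the NK gate (edgeR's quasi-likelihood test over 10 samples with the sample as block). Of 6419 genes tested, 26.7% were called at an adjusted p under 0.05, and 13.5% were called higher in the NK gate. On the log2 scale Klrd1 was higher by 1.71 ± 0.09 (SE; adjusted p = 4.49e-13). Klrb1c was higher by 4.77 ± 0.21, Klre1 by 3.85 ± 0.12, Klrc1 by 3.31 ± 0.18, Klrc2 by 3.03 ± 0.23 and Klrk1 by 3.02 ± 0.18 on the log2 scale. These 6 were higher in 10 of 10 samples each. Klri2 had 0 to 3 UMIs per sample in the CD8ab gate (11 in all) against 25 to 177 (970 in all) in the NK gate, too few for a fold, and it passed the filter on low counts only through the NK gate. Klrd1 had at least 10 UMIs in 10 of 10 CD8ab samples, Klrk1 in 7, Klrc2 and Klre1 in 6 each and Klrc1 and Klrb1c in 5 each, so these 5 also passed the filter in part through the NK gate, and their number called supports nothing further.

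CD8 T cells held Klrd1 transcripts in every sample. In the CD8ab gate Klrd1 stood at 1.41 (Nulliparous), 1.31 (Gestation), 1.62 (Lactation) and 1.27 (HT2) in the earlier library, and between 1.33 and 2.10 in the later library. The spread over samples was small. By contrast, Klrk1 there varied from 0.130 (Regression) to 1.29 (Lactation) and Klrc2 from 0.0370 (Regression) to 1.16 (Lactation) within the later library. The Regression values rest on 7 Klrk1 and 2 Klrc2 UMIs in 135 cells, and that of Klrc2 is below the level of 3 counts (0.0555).

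Against gamma-delta T cells, members other than Klrd1 were higher in the NK gate over 9 samples. The ranges of Klrk1 (3.73 to 6.37 against 1.04 to 2.77) and Klrb1c (5.18 to 7.89 against 0.634 to 3.58) lay apart, as did those of Klri2. The share of all genes with ranges apart was not computed. In this comparison 5.66% of 4166 genes were called and 3.22% were called higher. Klri2 had 0 to 5 UMIs per sample in the gamma-delta gate (19 in all), too few for a fold, and passed the filter only through the NK gate. Klrk1 rose on the log2 scale by 1.54 ± 0.11, Klrb1c by 1.54 ± 0.21, Klre1 by 1.25 ± 0.26, Klrc1 by 0.99 ± 0.16 and Klrc2 by 0.96 ± 0.15 (edgeR). Klrd1 did not pass, at 0.50 ± 0.20 (adjusted p = 0.174), and was higher in 6 of 9 samples. With no filter on low counts it was called (0.63, adjusted p = 0.000116). In the earlier library alone Klrc1, Klrc2 and Klre1 lost their calls (adjusted p = 0.147, 0.101 and 0.182).

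Klrd1 in gamma-delta cells varied widely between samples. It was 2.78 in Nulliparous, 7.29 in Gestation, 5.43 in Lactation and 0.504 in HT2 in the earlier library, and 3.55 in Gestation, 6.97 in Lactation, 2.41 in Involution, 2.53 in Regression and 4.80 in GF in the later library. In the later library, Lactation was highest, and Involution and Regression were lowest. The earlier HT2 value rests on 2 Klrd1 UMIs in 20 gamma-delta cells, below the level of 3 counts, and the later HT2 sample had 11 such cells. The later Lactation value rests on 26 cells.

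The gamma-delta gate and the CD8a-only gate in turn held more of the receptors than the CD8ab gate. In the gamma-delta gate 5 members passed the filter on low counts, which reads the UMIs of either gate, and were higher, where 13.6% of 3218 genes were called and 6.09% were higher. Klrb1c was higher by 3.19 ± 0.24, Klre1 by 2.51 ± 0.23, Klrc2 by 2.17 ± 0.25, Klrk1 by 1.58 ± 0.23 and Klrd1 by 1.20 ± 0.19 on the log2 scale. In the CD8a-only gate 6 passed it and were higher, where 7.91% of 3768 genes were called and 3.80% were higher. Klrb1c was higher by 3.14 ± 0.19, Klre1 by 2.98 ± 0.16, Klrc2 by 1.98 ± 0.25, Klrc1 by 1.87 ± 0.23, Klrk1 by 1.64 ± 0.24 and Klrd1 by 1.26 ± 0.16. Klri2 had too few UMIs for either test, and Klrc1 for the first. As given above, members other than Klrd1 had at least 10 UMIs in only part of the CD8ab samples. They passed the filter in part through the gate where they were higher, so the numbers of members called support nothing further. The tested members were higher in 9 of 9 samples, except Klrd1 in the gamma-delta gate and Klrc1 in the CD8a-only gate (8 of 9 each). In the earlier library alone Klrd1 lost its call in the first comparison (adjusted p = 0.0582) and Klrk1 and Klrc2 in the second (adjusted p = 0.214 and 0.0722). NK markers were also higher in both gates than in the CD8ab gate, as given above, and their part in these results was not tested.

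**Figure D2:**
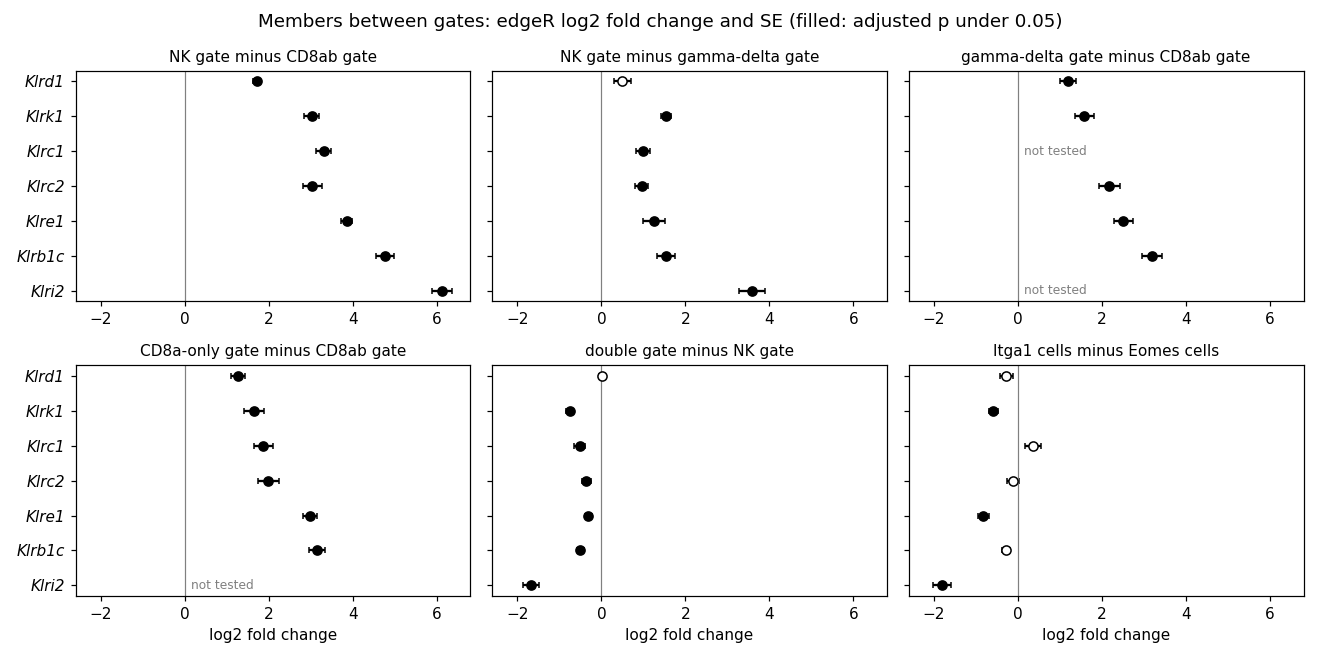
Log2 fold change of each member between gates (x axis), with its standard error, from edgeR fits over 8 to 10 hash samples without Balb/c. Filled points have an adjusted p under 0.05 and "not tested" marks genes with too few UMIs. Klrd1 is the member nearest to 0 between NK and CD8ab cells, and the points of Klri2 against the CD8ab and gamma-delta gates rest on 11 and 19 UMIs in those gates.

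Cells with both Cd3e and Ncr1 were close to NK cells in Klrd1 and had less of the other members. Klrd1 differed by 0.01 ± 0.08 on the log2 scale from the NK gate (adjusted p = 0.986, higher in 4 of 10 samples). Klri2 fell by 1.68 on the log2 scale (SE 0.18, lower in 10 of 10 samples, adjusted p = 4.59e-07) and Klrk1 fell by 0.75 (SE 0.08, lower in 10 of 10). Klri2 had 0 to 25 UMIs per sample in the double gate (100 in all), with at least 10 in 5 of 10 samples. It thus passed the filter on low counts in part through the NK gate, and its fold is uncertain. Klrc1, Klrb1c, Klrc2 and Klre1 fell by 0.52, 0.50, 0.36 and 0.31, with adjusted p of 0.00824, 0.000313, 0.0450 and 0.0203 (edgeR, n = 10). Of 4992 genes 7.71% were called and 3.95% were lower in the double gate. Klrc2 and Klre1 lost their calls without the HT2 samples (adjusted p = 0.217 and 0.0671). In the earlier library alone Klrc1, Klrc2, Klre1 and Klrb1c did not pass (adjusted p = 0.441, 0.699, 0.627 and 0.376). In cells thinned to 1000 UMIs only Klri2 passed, with Klrk1 at -0.64 (adjusted p = 0.307). Double-gate cells had median counts of 3472 to 5014 UMIs in the later library, against 2606.5 to 3461.5 in the NK gate, and their T cell markers summed to a median of 24.8 against 4.48. The part of 2 cells in 1 droplet in these cells was not tested beyond the doublet calls.

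Within the NK gate, cells with Eomes and without Itga1 (CD49a) were set against cells with Itga1 and without Eomes, since Eomes marks circulating NK cells and Itga1 the tissue-resident group 1 innate lymphoid cells. Klri2, Klre1 and Klrk1 were lower in the Itga1 cells over 8 samples, and the other 4 did not pass. Klri2 ranged from 1.68 to 3.82 in Eomes cells and from 0.184 to 1.26 in Itga1 cells, so the ranges did not overlap. The share of all genes with ranges apart was not computed. Itga1 cells held 129 Klri2 UMIs over the 8 samples. The lowest Eomes sample (earlier Nulliparous) held 12, with an interval of 0.867 to 2.93 that reaches into the Itga1 range. Klri2 fell by 1.82 on the log2 scale (SE 0.21, adjusted p = 1.50e-05, lower in 8 of 8). Klre1 fell by 0.83 (SE 0.13, adjusted p = 0.000245, lower in 7 of 8) and Klrk1 by 0.59 (SE 0.10, adjusted p = 0.000944, lower in 8 of 8). Klrc1 had a log2 difference of 0.37 ± 0.19 (adjusted p = 0.286), Klrc2 of -0.13 ± 0.14, Klrd1 of -0.28 ± 0.15 and Klrb1c of -0.28 ± 0.10 (adjusted p = 0.0937, but 0.0429 with Balb/c included). The background was 11.2% of 2345 genes called and 6.35% lower. In the earlier library alone Klrk1 and Klre1 did not pass (adjusted p = 0.0808 and 0.118), nor did they in thinned cells (0.873 and 0.657). The Klri2 share of the joint Klri2 and Klre1 count was 24.4% in Eomes cells (22.1 to 26.9%) and 14.9% in Itga1 cells (11.8 to 18.4%) of the later library, and 29.9% (25.1 to 35.1%) and 17.9% (14.1 to 22.1%) in the earlier library. The Klrc1 share of the joint Klrc1 and Klrc2 count was 35.7% (31.7 to 39.8%) in Eomes cells and 48.6% (44.4 to 52.9%) in Itga1 cells of the later library, and 40.8% (32.8 to 49.2%) and 45.5% (39.9 to 51.2%) in the earlier library, where the intervals overlapped.

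The adaptors that carry these signals divided between the cell types. Of 14 adaptor and signalling genes, 5 were higher and 3 lower in the NK gate than in the CD8ab gate. Tyrobp (DAP12), the partner of NKG2C, was higher by 3.48 ± 0.16 (adjusted p = 1.08e-13), Fcer1g by 3.13 ± 0.16, the kinase Syk by 2.30 ± 0.17 and Pik3r1 by 0.82 ± 0.10. Cd247 (CD3 zeta) fell by 1.09, the T cell kinase Lck by 0.62 and the phosphatase Ptpn6 by 0.36. Hcst (DAP10), the partner of NKG2D, did not pass (-0.18 ± 0.09, adjusted p = 0.172), while Klrk1 itself was higher by 3.02. The median of the list was 0.02, beside 0.01 over all genes.

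Tyrobp and Fcer1g were also higher in other comparisons with the CD8ab gate. In gamma-delta cells they rose by 2.22 and 2.54, with Zap70 (0.67) and Pik3r1 (0.55), making 4 of 13 adaptors tested. In CD8a-only cells they rose by 2.00 and 2.34, with Zap70 (0.56), making 3 of 13, and Hcst had a difference of 0.35 (adjusted p = 0.0506). Between the NK and gamma-delta gates Syk and Tyrobp were higher in NK cells by 1.86 and 1.35 and Cd247, Zap70 and Ptpn6 lower by a log2 difference of -1.13, -0.74 and -0.72, with Hcst at -0.33 (adjusted p = 0.114). In the double gate Cd247, Lck and Hcst were higher than in the NK gate (0.64, 0.38 and 0.31) and Syk, Tyrobp and Pik3r1 lower (-1.29, -0.54 and -0.33). In Itga1 cells Cd247, Syk and Pik3r1 were lower than in Eomes cells (-1.94, -1.01 and -0.54), and Hcst and Tyrobp did not pass (0.27 and -0.09).

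Related receptors outside the group moved with them in part. Of 9 other lectin-like receptors 4 were tested between NK and CD8ab cells, and Klrb1b, Klrb1a and Klrb1f were higher while Cd69, an activation marker, was lower (-0.87 on the log2 scale). The first 3 had 10, 26 and 46 UMIs in the CD8ab gate against 908, 926 and 1050 in the NK gate, too few for a fold. In NK against gamma-delta cells Klrb1f (1.25) was higher, Cd69 (-0.55) lower and Klrb1b higher on 20 UMIs in the gamma-delta gate. In the double gate Klrb1b, Klrb1a and Klrb1f were lower than in the NK gate (-1.68, -0.68 and -0.65) and Cd69 was higher (0.63). Klrb1b had 101 UMIs in the double gate, with at least 10 in 5 of 10 samples, so it passed the filter in part through the NK gate. In Itga1 cells Klrb1b and Klrb1a were higher (0.85 and 0.73) and Klrb1f lower (-0.54) than in Eomes cells. Klrc3, the third NKG2 gene beside Klrc1 and Klrc2, reached at most 0.0997 in the NK gate, and Klri1 at most 0.132, outside Balb/c. Between 2 and 4 ligand genes were tested in each comparison of gates or stages and none was called. H2-T23, which encodes the CD94 and NKG2 ligand Qa-1, was itself at a median of 2.82 in the NK gate.

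The genes whose levels ran most like each member over 64 sums of gate and sample, centred within each library, were found among 8382 genes by Pearson correlation of log2(CPM + 1). The sums share cells' libraries and depth, so this is a description. Those of Balb/c are among the 64, and their part in the correlations was not tested. Klrd1 ran with Chsy1 (r = 0.92), Ctsw (0.88) and AW112010 (0.87), and Klrk1 with Tbx21 (0.84), Septin11 (0.81) and Il2rb (0.81). Klrc1 ran with Osbpl3 (0.84), Fcer1g (0.83) and Xcl1 (0.83), and Klrc2 with Car2 (0.85), Myo6 (0.83) and Sulf2 (0.82). Klre1 ran with Fcer1g (0.90), Il2rb (0.87) and Klrb1a (0.84), Klrb1c with Klra9 (0.84), Aoah (0.805) and Efhd2 (0.78), and Klri2 with Klra4 (0.82), Ncr1 (0.76), which also set the gates, and Ugcg (0.76). Among the members, Klre1 and Klrb1c were the most alike (0.92) and Klrb1c and Klri2 the least (0.52).

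Across the named samples the NK gate levels were compared within each library. In the earlier library the Gestation sample was highest of the 4 for Klrd1 (6.13), Klrk1 (5.16), Klrc1 (1.93), Klrc2 (3.09), Klre1 (5.81) and Klrb1c (6.26). The share of all genes highest in Gestation was not computed. For Klrd1, Klrk1, Klrc1 and Klrb1c its interval overlapped that of at least 1 other sample. HT2, for example, was at 5.02 for Klrk1 and 5.91 for Klrb1c. For Klrc2 the other 3 samples were at 1.75 (Nulliparous), 1.74 (Lactation) and 1.99 (HT2), and the Gestation interval (2.70 to 3.52) lay above all of theirs. For Klre1 the others were at 3.60, 3.76 and 4.58. Klri2 was highest in HT2 (2.12), followed by Gestation (1.67), Lactation (0.945) and Nulliparous (0.869). Eomes cells made up 25.6% of the NK gate of HT2 and 12.2 to 15.9% of that of the other 3 samples, and Itga1 cells 6.88% against 24.9 to 43.6%. The part of this makeup in the levels was not tested.

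The later library held 6 samples other than Balb/c. Klrc2 was 2.88 in Gestation, 2.95 in Lactation, 2.97 in Involution, 3.17 in Regression, 3.497 in GF and 3.46 in HT2. Klrd1 was 5.66 in Gestation, 5.18 in Lactation, 5.59 in Involution, 4.74 in Regression, 7.69 in GF and 5.86 in HT2, so GF stood above the others, with an interval of 7.04 to 8.38. Klre1 was highest in HT2 (7.57) and lay between 5.42 and 6.30 in the other 5. Klrb1c was highest in Gestation (7.89), GF (7.17) and HT2 (7.13) and lower in Lactation (5.96), Involution (5.63) and Regression (5.18). Klrk1 ran from 5.25 in Involution to 6.99 in HT2, Klrc1 from 1.95 in GF to 2.80 in Gestation, and Klri2 from 1.39 in Lactation to 2.15 in HT2. The NK gate of HT2, highest for Klre1, Klrk1 and Klri2, held the most Eomes cells of the 6 samples (44.96%) and the fewest Itga1 cells (9.66%), and the part of this makeup in the levels was not tested. A name with 1 sample has no replicate, and its interval covers counting error only.

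**Figure D3:**
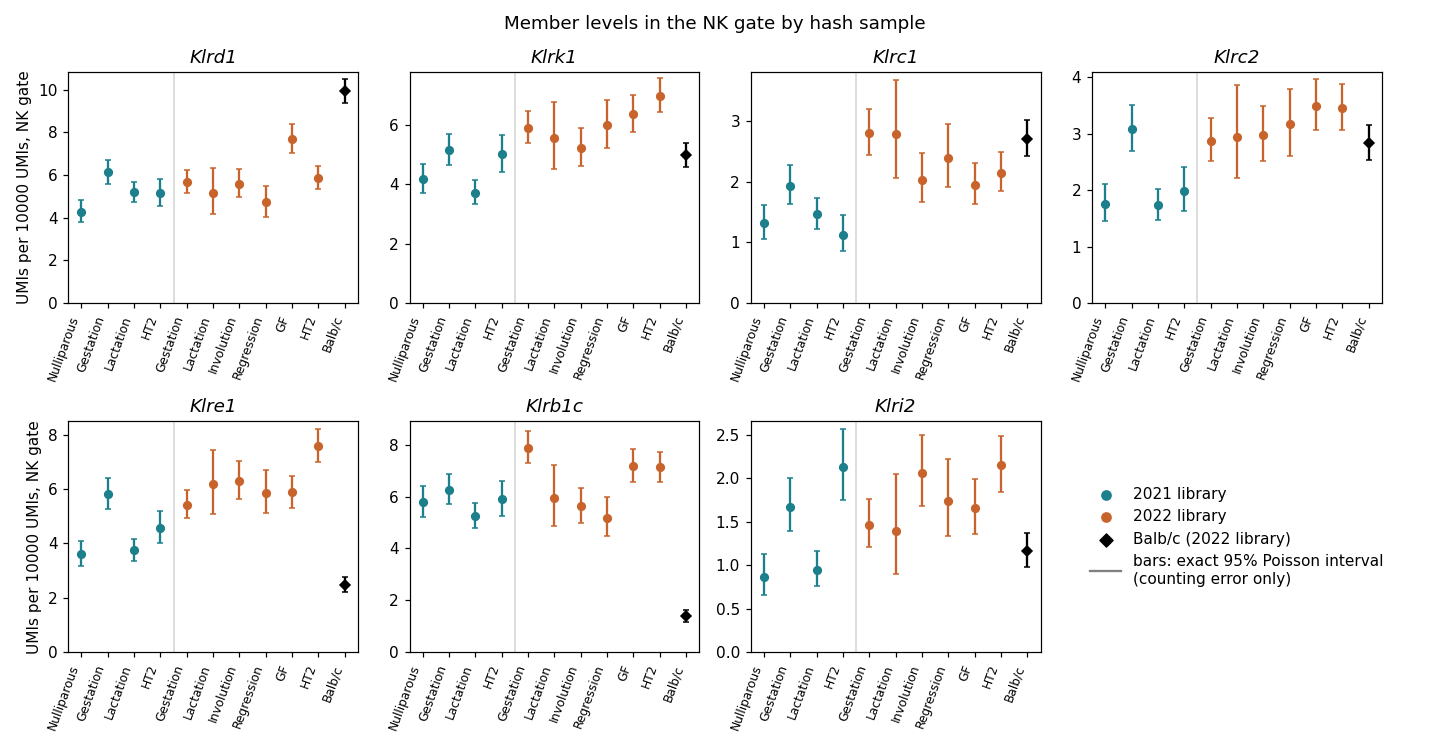
Level of each member in the NK gate (UMIs per 10000 UMIs, axis from 0) in every hash sample, the earlier library left of the grey line and the later library right of it. Bars are exact 95% Poisson intervals. Gestation is highest in the earlier library for 6 members, with bars that overlap those of other samples for Klrd1, Klrk1, Klrc1 and Klrb1c. Balb/c (diamond) is highest for Klrd1 and lowest for Klrb1c and Klre1.

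Lactation and Gestation were the stages with a sample in both libraries. Of the 7 members 7 could be tested in the NK gate, 3 in the CD8ab gate and 6 in each of the gamma-delta and CD8a-only gates. None was called, with 2 samples a stage and the library as block, which leaves 1 residual degree of freedom. The share of all genes called was 0.0133% in the NK gate, 0.341% in the CD8ab gate, 0.0349% in the gamma-delta gate and 0.117% in the CD8a-only gate. In the NK gate all 7 joint estimates were below 0, from -0.20 ± 0.24 for Klrd1 to -0.52 ± 0.29 for Klri2 (adjusted p = 0.999 each, edgeR). Over the 4 gates only Klrc2 in the CD8ab gate had an unadjusted p under 0.05 (0.00463), and DESeq2 called no member either. The libraries differed: in the earlier library the log2 ratio was -0.84 for Klrc2, -0.83 for Klri2 and -0.63 for Klre1, and in the later library it was 0.03, -0.08 and 0.19. Klri2 was thus lower in Lactation in both libraries in the NK gate. So were Klrb1c (-0.26 and -0.41), Klrd1 (-0.24 and -0.13), Klrk1 (-0.47 and -0.09) and Klrc1 (-0.41 and -0.01). The later Lactation sample had 48 NK gate cells.

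In T cells the estimates went both ways, without a call. Klrk1 was at -0.63 ± 0.40 in the gamma-delta gate (-1.19 in the earlier and -0.09 in the later library), and Klrc1 at -0.61 ± 0.45 (-0.92 and -0.35). In the CD8a-only gate Klrk1 was at -0.16 ± 0.39. Klrb1c was at 0.44 ± 0.39 in the gamma-delta gate and 0.34 ± 0.36 in the CD8a-only gate, above 0 in both libraries. Klrd1 was at 0.25 ± 0.25 in the CD8ab gate, above 0 in both libraries. Klrc2 in the CD8ab gate was at 1.31 ± 0.46 (adjusted p = 0.421), with a log2 ratio of 2.06 in the later library and -2.49 in the earlier library. The earlier ratio rests on 1 Klrc2 UMI in Lactation and 9 in Gestation, too few to read a direction. The difference between a T cell gate and the NK gate was tested as a gate by stage term, added after the separate results were seen. It passed for none of the 7 members in the CD8ab, gamma-delta or CD8a-only gate, where 0.0405%, 0.0966% and 0.209% of genes passed. At an unadjusted p under 0.05 it held Klrc2 and Klrb1c in the first, Klrb1c in the second and Klrd1 and Klrb1c in the third. Klrb1c had the smallest adjusted p of the 7 in the CD8a-only gate, with a difference of 0.85 ± 0.29 (unadjusted p = 0.00828, adjusted p = 0.574).

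**Figure D4:**
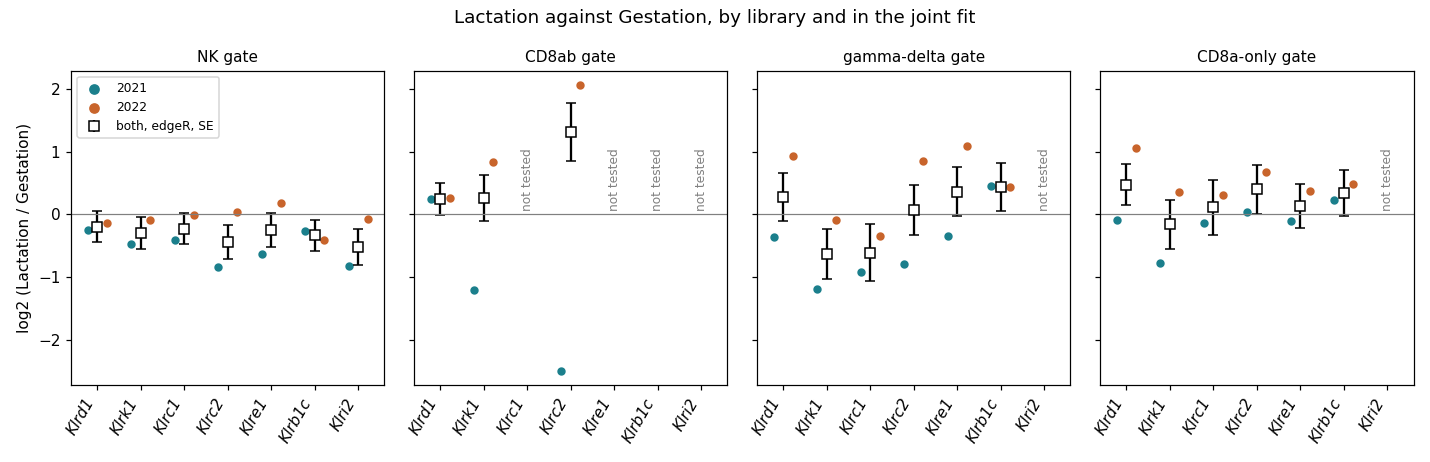
Log2 ratio of Lactation to Gestation for each member in 4 gates (y axis), in the earlier and later libraries (dots) and in the joint edgeR fit with its standard error (squares). No joint estimate passed, and the 2 libraries often lie on both sides of 0.

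The Balb/c sample differed most from the 6 other samples of its library in Klrb1c, Klre1 and Klrd1. In its NK gate (393 cells) Klrb1c was at 1.39 (exact 95% interval 1.18 to 1.62), against 5.18 to 7.89 in the others, which is 3.73 times below the lowest of them. Klre1 was at 2.48 (2.20 to 2.77) against 5.42 to 7.57, which is 2.19 times below the lowest. Klrd1 was at 9.93 (9.37 to 10.5) against 4.74 to 7.69, above all others by 1.29 times. By the rule of 1.5 times outside the range, Klrb1c and Klre1 were lower and no member was higher. Of 8434 genes with at least 50 UMIs, 2.17% were lower and 2.04% higher by that rule. At a fold of 2 both still counted.

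The other 4 lay within the range of the 6 samples or below it by less than the fold. Klrc1 was at 2.71 against 1.95 to 2.80, Klrc2 at 2.83 against 2.88 to 3.497, Klrk1 at 4.99 against 5.25 to 6.99 and Klri2 at 1.16 against 1.39 to 2.15. Of the other genes in the 3 lists with enough UMIs, Klrb1b, a close relative of Klrb1c, was lower (0.167 against 1.06 to 2.48), and Ptpn6 was higher (3.13 against 1.18 to 1.52). Klrb1a (1.88) lay within the range of the others, and Klrb1f (3.002) above it by less than the fold. With 1 Balb/c sample there is no test, and strain cannot be told apart from the animals or the stage of that sample.

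The NK gate of Balb/c also had a different makeup, with 61.6% Itga1 cells and 10.2% Eomes cells, against 9.66 to 44.0% and 20.6 to 44.96% in the other samples of the later library. Klrb1c remained low within each. In Itga1 cells it was at 0.969 against 4.93 to 7.19 in 4 samples, and in Eomes cells at 3.35 (40 cells) against 5.999 to 8.31 in 5 samples. Klre1 was at 1.59 against 3.87 to 4.28 in Itga1 cells, and at 6.88 against 8.41 to 9.59 in Eomes cells. Klrd1 was above the range in both (10.3 against 2.67 to 8.63, and 11.0 against 6.45 to 8.01). Klri2, which was below the range in the whole NK gate, was above it in Itga1 cells (0.982 against 0.184 to 0.874) and within it in Eomes cells (2.99 against 2.17 to 3.82).

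Klrb1c was also low and Klrd1 high in most T cell gates of Balb/c. Klrb1c was at 0.637 in the double gate against 2.71 to 5.34, at 0.286 in the gamma-delta gate against 0.634 to 3.58 and at 0.0586 in other T cells against 0.390 to 1.17. In the CD8a-only gate 0 UMIs were found in 53 cells, which allows a level of up to 0.167 (3 counts, counting error only), where the others had 0.569 to 3.92, and in the CD8ab gate the level (0.0847) lay within the range of the others. Klrd1 was above the range in the double (8.92), gamma-delta (9.59), CD8ab (2.51) and other T gates (3.53), and within it in the CD8a-only gate (7.18). In the CD8ab gate the others reached 2.10. Klrd1 was also above the range in B cells of Balb/c, at 0.878 (13 UMIs in 53 cells) against at most 0.160. In myeloid cells it lay within the range (0.209 against 0.182 to 0.300). The part of free RNA in the Klrd1 levels of the Balb/c T cell gates was not tested. Klri2 reached 0.816 in the gamma-delta gate, against 0 to 0.160 in 5 other samples. All samples were counted against mm10, the genome of the C57BL/6J strain, and how reads that differ between strains were counted was not tested.

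**Figure D5:**
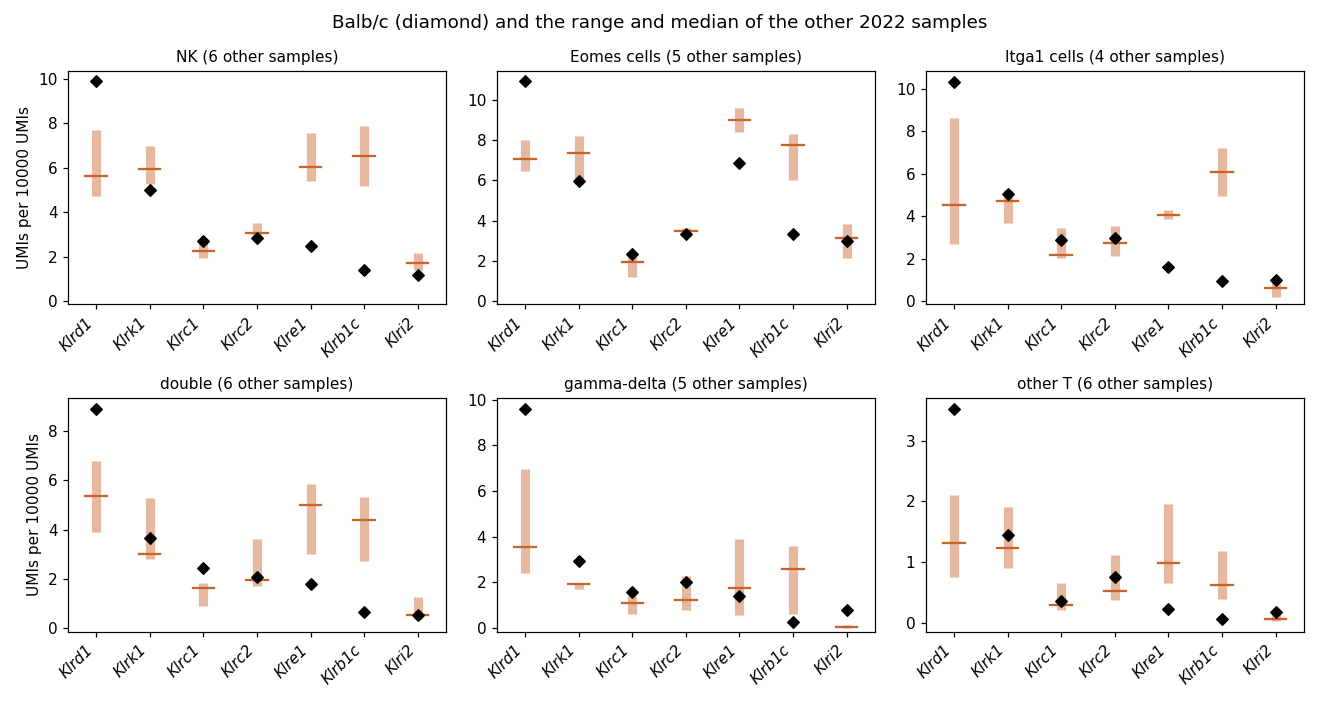
Level of each member (UMIs per 10000 UMIs) in Balb/c (diamond) and the range (bar) and median (line) of the other samples of the later library with at least 20 cells, in 6 cell groups (the NK gate, its Eomes and Itga1 cells, and the double, gamma-delta and other T gates). Klrb1c lies below the bar and Klrd1 above it in these 6, while Klrb1c in the CD8ab gate and Klrd1 in the CD8a-only gate, which are not drawn, lay within the range.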

How the data were processed

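Gene expression and hash tags of CD45+ mammary cells were measured by droplet 3' sequencing, per the labels' protocols. The deposited matrices hold counts that are not normalized, of UMIs for genes and of reads or UMIs for tags. The submitters' processing notes name Cell Ranger 6.1.0 and mm10. The gene annotation is not given in the sources used here. Libraries were matched by gene symbol, and 234 entries sharing a symbol were left out. Cells with at least 500 UMIs, 300 genes and at most 10% mitochondrial UMIs were kept. Tags were called with HTODemux (Seurat 5.3.0, quantile 0.99). Scrublet (scanpy 1.11.5, expected rate 0.08) called 7.86% and 6.87% of cells as doublets, and these were removed. Raw UMIs were summed per sample and gate with at least 20 cells and tested with edgeR 4.0.16 (TMM, filterByExpr, quasi-likelihood, Benjamini-Hochberg over all genes tested, threshold 0.05). HT2 samples entered the gate comparisons under their tag, and Balb/c did not. A replicate sample is 1 hash tag in 1 library. SE is the standard error of the log2 fold change. On simulated counts with 6419 genes, the NK against CD8ab fit recovered 63% of 2-fold and 100% of 4-fold changes. With 7501 genes, the Lactation against Gestation fit in the NK gate recovered 3% and 38%. Alternatives were DESeq2 1.42.0, no filter, gates at 2 UMIs, each library alone, other sample sets, doublet calls kept, cells thinned to 1000 UMIs and gated again, and another tag rule. All members are named. From 3 lists (adaptors, ligands, other lectin-like receptors) up to 4 called genes per direction with the largest fold change are named, plus Hcst and Tyrobp. In the Balb/c comparison list genes past the fold are named, with their relatives Klrb1a and Klrb1f, chosen after their values were seen, as were Klrc3, Klri1 and H2-T23. Of 13 ligand genes 10 were measured. The members and lists were chosen with earlier results of these data known. The gate by stage term was added after seeing the data.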

Additional observations from a re-analysis of the deposited data

How the results depend on the processing

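Counts of called genes moved by over 1.5 times in 38 alternatives and stayed within it in 32. For single members between gates, 285 alternatives kept direction and side of the threshold, 30 lost the call, 2 gained it and 8 turned direction. Between stages 154 kept and 24 turned. Gates at 2 UMIs gave 880 calls for NK against CD8ab (main 1711), 74 for NK against gamma-delta (236), 104 for gamma-delta against CD8ab (439) and 60 for double against NK (385). The earlier library alone gave 551, 97, 99 and 84, with 90 for CD8a-only against CD8ab (298) and 125 for Itga1 against Eomes cells (263), and the later library alone 147 and 130 for the last 2. Thinning gave 387, 73, 110, 25, 109 and 31 in the same order. No filter on low counts gave 674 for NK against gamma-delta, 854 for gamma-delta against CD8ab, 652 for CD8a-only, 617 for double and 549 for Itga1 cells. For Lactation against Gestation the main counts were 1 (NK), 13 (CD8ab), 1 (gamma-delta) and 5 (CD8a-only). DESeq2 gave 0, 0, 0 and 1, and no library block gave 0 in each of the 4. No filter gave 55, 54 and 27 in the first 3 gates, kept doublet calls 11 (NK), 7 (CD8ab) and 2 (CD8a-only), and the tag with most counts 0 (CD8ab).

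Some of the directions that turned were of values near 0 or thinly counted, and others were not. Klre1 in the NK gate between stages had 342 (Lactation) and 427 (Gestation) UMIs in the earlier library. The cause was not tested. Klrd1 in double against NK cells was -0.083 with no filter, -0.070 at 2 UMIs, -0.043 in the later library and -0.0056 with Balb/c. In thinned cells Klre1 was 0.26 there, and Klrc2 (0.48) and Klrd1 (0.16) turned in Itga1 against Eomes cells, where Klrc2 was 0.095 in the earlier library. Klrk1 in the CD8ab gate between stages was -0.043 with DESeq2 and -0.31 by the tag with most counts. Leaving out 1 sample at a time gave -0.84 to 0.034 (Klrc2) and -0.63 to 0.19 (Klre1) in the NK gate, and -1.20 to 0.84 (Klrk1) and -2.55 to 2.06 (Klrc2) in the CD8ab gate. It gave -0.37 to 0.93 (Klrd1), -0.79 to 0.85 (Klrc2) and -0.35 to 1.09 (Klre1) in the gamma-delta gate. In the CD8a-only gate it gave -0.78 to 0.35 (Klrk1), -0.10 to 1.06 (Klrd1), -0.14 to 0.31 (Klrc1) and -0.11 to 0.37 (Klre1).

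Gene counts with 1 stage sample left out have no residual degrees of freedom and were not run, nor were most fits by the tag with most counts and Itga1 against Eomes cells at 2 UMIs. Gate comparisons were paired within hash sample and stage comparisons within library, and the labels give no replicate numbers for another pairing. Depth limits Klri2, with 11 UMIs in the CD8ab gate. With 2 samples a stage, a p that misses the threshold does not show equal levels.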
